A study of Mus musculus with 13 samples.

Results

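The immediate early transcription factors described here are 10 genes, Fos, Fosb, Jun, Junb, Jund, Egr1, Ier2, Klf6, Atf3 and Zfp36, read by symbol from a table of 25965 genes. All 10 were found in the table. RNA-seq had been made from whole mouse testis, freed of its outer capsule, in 13 libraries from animals of 15 weeks. The design text counts 3 wild-type mice (WT), 4 heterozygotes (Het) and 6 knockouts (KO) of Wfdc15a, a gene of the whey acidic protein family, and treats WT and Het together as the control (n = 7). The titles also carry a number, 1 or 2, which no source used here explains. KO replicates 1 to 3 and Het replicate 1 have number 1, and KO replicates 4 to 6 and all other controls have number 2. No source used here gives the strain, the allele or the handling of the mice. The comparison asks how the testis transcriptome of Wfdc15a knockouts differs from that of controls.

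Immediate early genes are the first genes that a cell transcribes after a stimulus such as a growth factor, a hormone or stress, because the factors that switch them on are already present and need only to be activated. Their transcripts and proteins are short-lived. Fos and Jun proteins pair through leucine zippers into the AP-1 factor, which binds DNA and passes the signal on to later genes. In the testis AP-1 is known from Leydig and Sertoli cells, and in Leydig cells it acts with other factors on genes of steroid synthesis.

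Wfdc15a RNA was not lost in the libraries labelled KO. Its level was 65.5 ± 12.5 RPM (SD, n = 7; RPM is the number of reads divided by the total of the library and scaled up) in the controls and 44.6 ± 21.8 RPM (n = 6) in libraries labelled KO (two-sided exact permutation test, p = 0.0338). It was 28.1 ± 7.60 RPM (n = 3) in those of number 1 and 61.2 ± 17.7 RPM (n = 3) in those of number 2, so the RNA level did not bear out the labels of the latter (two-sided exact permutation test against control, p = 0.567). What deletion the allele carries is not known here, so this level checks the labels only in part. A library held 4.51 to 11.1 M reads, 1 read was worth 0.0899 to 0.222 RPM, and the members are low genes with at most 141 reads in any library. A count of 0 allows up to 3 reads, or 0.270 to 0.665 RPM depending on the library, and this limit covers counting error only. Markers of late spermatids were abundant in every library, as the tissue label says (summed level of 12 genes 6206 to 19117 RPM).

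A test was possible for 8 of the 10 members, those with a mean of at least 1 RPM over the 13 libraries. Of these, 6 rose in libraries labelled KO and none fell (limma on log2(RPM + 1), Benjamini-Hochberg adjusted p below 0.05). Those that rose were Klf6, Ier2, Fos, Egr1, Junb and Jun. Jund and Zfp36 did not pass the test. Of all 16235 genes tested, 18.4% rose and 6.18% fell. The median difference was 0.87 on the log2 scale over the 8 members and 0.16 over all genes. With scaling by median-of-ratios the shares of all genes became 10.5% higher and 10.6% lower, and 3 of the 8 members rose. With quantile normalization the shares were 8.99% and 9.44%, and 2 members rose. Klf6 and Ier2 were the 2 that were called under both.

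The sequences just upstream of the members are shown because the genes that rose and those that did not can be set side by side at the level of the elements through which signals are known to reach this class of gene. Each line holds the 250 bases before the start that RefSeq gives the gene, 5′ to 3′ on the gene's strand, from the promoter table of build GRCm38.p6, which matched 8 of the 10 members. These starts are not always those of the counted gene. The last 27 bases of the Zfp36 window and the last 7 of the Atf3 window lie inside the gene as deposited, and both windows lie wholly inside the longer models of GENCODE release M21. For Jund, GENCODE places the start 1210 bases downstream of the deposited one. Capitals mark matches, on either strand, to 6 motifs. They are the CArG box, which is the site of serum response factor, and the cyclic AMP response element TGACGTCA. The shorter core of that element, TGACG, was searched as well. The site of AP-1 was written as TGANTCA and that of Egr1 as GCGNGGGCG. The last was the TATA box, written as TATAAA. The first 3 genes rose and the last 2 did not pass the test.
Fos (chr12:85473640-85473889, plus strand): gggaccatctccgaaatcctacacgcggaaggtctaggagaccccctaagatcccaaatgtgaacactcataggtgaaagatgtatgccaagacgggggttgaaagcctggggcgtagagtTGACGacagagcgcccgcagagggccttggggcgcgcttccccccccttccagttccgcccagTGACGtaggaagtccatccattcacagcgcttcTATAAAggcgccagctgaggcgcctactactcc
Junb (chr8:84978749-84978998, minus strand): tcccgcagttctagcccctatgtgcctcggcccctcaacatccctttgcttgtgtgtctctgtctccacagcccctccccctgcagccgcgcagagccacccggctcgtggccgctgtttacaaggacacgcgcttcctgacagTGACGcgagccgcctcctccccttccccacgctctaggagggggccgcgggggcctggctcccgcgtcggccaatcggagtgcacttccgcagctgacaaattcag
Klf6 (chr13:5861239-5861488, plus strand): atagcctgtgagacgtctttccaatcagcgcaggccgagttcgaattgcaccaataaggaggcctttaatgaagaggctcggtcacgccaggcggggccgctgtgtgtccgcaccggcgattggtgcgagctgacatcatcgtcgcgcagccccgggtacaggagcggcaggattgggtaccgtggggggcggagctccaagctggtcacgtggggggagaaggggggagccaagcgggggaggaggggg
Jund (chr8:70697489-70697738, plus strand): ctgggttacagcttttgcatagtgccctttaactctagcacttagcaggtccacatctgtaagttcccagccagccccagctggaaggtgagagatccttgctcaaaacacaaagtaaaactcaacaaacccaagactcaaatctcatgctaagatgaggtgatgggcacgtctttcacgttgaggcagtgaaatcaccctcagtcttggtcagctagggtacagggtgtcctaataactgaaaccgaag
Zfp36 (chr7:28379229-28379478, minus strand): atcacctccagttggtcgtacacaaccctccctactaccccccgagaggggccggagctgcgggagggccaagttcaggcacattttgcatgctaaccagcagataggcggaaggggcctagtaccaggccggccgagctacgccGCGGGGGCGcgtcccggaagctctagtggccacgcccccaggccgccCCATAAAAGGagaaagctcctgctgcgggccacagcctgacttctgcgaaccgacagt

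In these windows the core TGACG was found in Fos (from bases -129 and -66, counted back from the start), Junb (from -106), Fosb (from -60) and Atf3 (from -7), 4 of 8 members, and in 17.8% of all 32851 promoters. The match in Atf3 lies inside the gene as deposited and not upstream of it. The full element TGACGTCA was in none of the 8 and in 1.55% of promoters, and TGACG also matches within it. A CArG box was found in Zfp36 (bases -58 to -49) and in 1.47% of promoters. GCGNGGGCG was found in Fosb and Zfp36 and in 4.70% of promoters. TATAAA was found in Fos (bases -33 to -28) and in 12.4% of promoters, and TGANTCA in none of the 8 and 6.75% of promoters. Klf6, Jun and Jund held no match to any of the 6 motifs in this window. The windows of Klf6 and Jun both hold TGACATCA, a variant of TGACGTCA that none of the 6 patterns can match. Zfp36 held matches to 2 of the motifs. These are letters in a window and not measured binding, and their part in the members' differences was not tested.

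**Figure D1:**
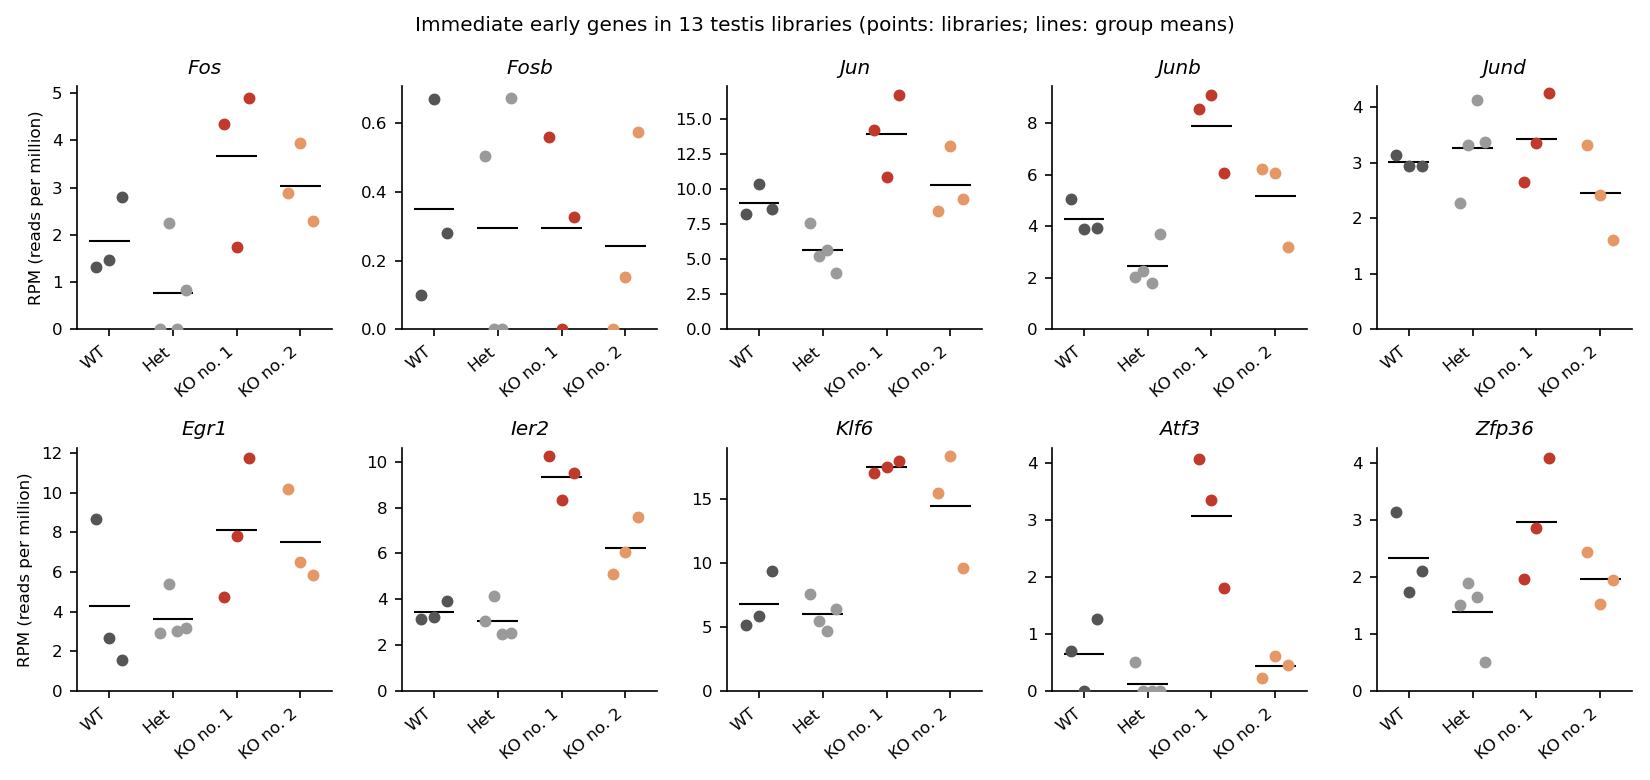
RPM of each of the 10 members (vertical axis, from 0, own scale per gene) in WT, Het, KO of title number 1 and KO of title number 2. Points are libraries and lines are group means. For Klf6 and Ier2 every library labelled KO lies above every control, and Atf3 is above 1.26 RPM in the 3 KO libraries of number 1 only.

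Fos encodes the partner that gives AP-1 its stable binding to DNA (chromosome 12, 85473890 to 85477273, plus strand, mm10). Its level was 1.32, 1.48 and 2.80 RPM in WT replicates 1 to 3 and 0, 2.25, 0 and 0.842 RPM in Het replicates 1 to 4. In libraries labelled KO it was 4.34, 1.74, 4.91, 2.88, 3.95 and 2.30 RPM in replicates 1 to 6. KO replicates 2 and 6 lay among the controls, and the 2 libraries without a read were both Het. The mean was 1.24 ± 1.06 RPM (SD, n = 7) in the controls and 3.35 ± 1.24 RPM (n = 6) in KO, from 74 and 134 reads in all. On the log2(RPM + 1) scale Fos rose by 1.07 (SE 0.33, limma adjusted p = 0.0219). Adjusted p was 0.0505 without Het replicate 1 and 0.0562 without KO replicate 3. Against WT alone the difference was 0.59 (SE 0.39, adjusted p = 0.375).

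Fosb, which encodes a close relative of Fos (chromosome 7, 19302721 to 19310045, minus strand), was at the limit of detection. No library held more than 5 reads of it, and 4 of the 13 held none. Its mean was 0.319 ± 0.299 RPM (SD, n = 7) in the controls and 0.269 ± 0.261 RPM (n = 6) in KO, with overlapping groups (two-sided exact permutation test, p = 0.783). A difference in Fosb was not detectable at this depth.

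Jun encodes the partner that can form AP-1 alone or with Fos (chromosome 4, 95049034 to 95052222, minus strand, a gene of 1 exon). It was 8.20, 10.3 and 8.54 RPM in WT, and 7.57, 5.21, 5.64 and 4.04 RPM in Het replicates 1 to 4. Replicates 1 to 6 labelled KO had 14.2, 10.8, 16.7, 8.42, 13.1 and 9.30 RPM. Every Het library lay below every WT library, and 2 of the 6 libraries labelled KO lay within the WT range. The mean was 7.08 ± 2.20 RPM (SD, n = 7) in the controls and 12.1 ± 3.14 RPM (n = 6) in KO, and Jun rose by 0.71 on the log2 scale (SE 0.22, limma adjusted p = 0.0218). Adjusted p was 0.0615 without KO replicate 3. The listed gene BC042782 overlaps Jun on the other strand, and no source used here gives the strand of counting, so reads of the pair cannot be told apart. BC042782 itself differed by 0.17 (SE 0.22, adjusted p = 0.606).

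Junb encodes a Jun relative that can oppose Jun on shared targets (chromosome 8, 84976909 to 84978748, minus strand). It was 5.06, 3.89 and 3.92 RPM in WT and 2.02, 2.25, 1.79 and 3.71 RPM in Het. The 6 libraries labelled KO had 8.55, 9.07, 6.05, 6.20, 6.07 and 3.21 RPM. All but KO replicate 6 exceeded every control, and Het again lay below WT in every library. The mean was 3.23 ± 1.22 RPM (SD, n = 7) against 6.53 ± 2.10 RPM (n = 6), and Junb rose by 0.83 (SE 0.25, limma adjusted p = 0.0208). Adjusted p was 0.0501 without KO replicate 1 and 0.0534 without KO replicate 2.

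Jund encodes the Jun relative that is made more constantly than the others and is the least dependent on stimuli (chromosome 8, 70697739 to 70700616, plus strand). Its lowest, median and highest values were 2.27, 3.14 and 4.13 RPM in the controls and 1.61, 2.99 and 4.25 RPM in libraries labelled KO. The groups overlapped throughout. The difference was -0.10 on the log2 scale (95% interval -0.57 to 0.36, limma adjusted p = 0.781). The listed gene Gm11175, at a mean of 1.03 RPM, overlaps Jund on the other strand.

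Egr1 encodes a zinc-finger factor that growth factors and gonadotrophins switch on (chromosome 18, 34859823 to 34864984, plus strand). It was 8.70, 2.68 and 1.54 RPM in WT and 2.90, 5.39, 3.03 and 3.20 RPM in Het. In libraries labelled KO it was 4.76, 7.83, 11.8, 10.2, 6.53 and 5.85 RPM. WT replicate 1 exceeded 4 of the 6 libraries labelled KO, while the other 2 WT libraries lay below all 6. The mean was 3.92 ± 2.40 RPM (SD, n = 7) against 7.82 ± 2.69 RPM (n = 6), and Egr1 rose by 0.91 (SE 0.28, limma adjusted p = 0.0225). Adjusted p was 0.0624 without KO replicate 3 and 0.0502 without KO replicate 4. With no filter on low genes it was 0.0526.

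Ier2 encodes a small nuclear protein of the first wave of induced genes (chromosome 8, 84661331 to 84662852, minus strand, a gene of 1 exon). It was 3.14, 3.22 and 3.92 RPM in WT and 3.03, 4.13, 2.48 and 2.53 RPM in Het. In libraries labelled KO it was 10.2, 8.33, 9.49, 5.10, 6.07 and 7.57 RPM. The highest control, Het replicate 2, lay below the lowest KO, replicate 4. The mean was 3.21 ± 0.632 RPM (SD, n = 7) against 7.80 ± 1.97 RPM (n = 6), and Ier2 rose by 1.05 (SE 0.21, limma adjusted p = 0.00113), a 2.07-fold difference of RPM + 1. The call held without each library in turn, with adjusted p between 0.000779 and 0.00405.

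Klf6 encodes a zinc-finger factor of the Krüppel-like family that binds GC-rich promoters (chromosome 13, 5861489 to 5870393, plus strand). It was 5.16, 5.90 and 9.38 RPM in WT and 7.57, 5.48, 4.68 and 6.40 RPM in Het. Those labelled KO had 17.1, 17.5, 17.99, 15.5, 18.4 and 9.64 RPM. All but KO replicate 6 were at 15.5 RPM or more, and replicate 6 lay just above the highest control. The mean was 6.37 ± 1.62 RPM (SD, n = 7) against 16.0 ± 3.28 RPM (n = 6), and Klf6 rose by 1.21 (SE 0.20, limma adjusted p = 0.000167), a 2.31-fold difference of RPM + 1. Its difference stood at percentile 98.4 of all genes tested. It was called under all 24 alternatives tried, at 0.93 to 1.34 on the log2 scale.

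Atf3 encodes a stress-induced factor of the bZIP family that often represses its targets (chromosome 1, 191170296 to 191183340, minus strand). Its mean of 0.998 RPM over the 13 libraries left it just under the minimum for the fit. It was 0.708, 0 and 1.26 RPM in WT, and 0.505, 0, 0 and 0 RPM in Het. It was 4.06, 3.36 and 1.80 RPM in KO replicates 1 to 3, and 0.222, 0.607 and 0.459 RPM in KO replicates 4 to 6, which had 1 to 4 reads each. The 3 KO libraries of number 1 exceeded all others, and the 3 of number 2 lay among the controls. Over all libraries the difference was 0.88 on the log2 scale (two-sided exact permutation test, p = 0.0437). It was not called without any 1 of KO replicates 1 to 3 (exact p 0.0859, 0.0808 and 0.0707) or any 1 of the 4 controls at 0, WT replicate 2 and Het replicates 2 to 4 (exact p 0.0736 each). A comparison by title number, chosen after seeing the data, gave 1.62 for number 1 against control (exact permutation p = 0.00833, the smallest that this design allows) and 0.14 for number 2 (p = 0.642). Number 1 against number 2 gave 1.48, with the smallest exact p that 3 against 3 allows, 0.1.

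Zfp36 encodes tristetraprolin, which is no transcription factor but a protein that binds AU-rich mRNAs, those of several immediate early genes among them, and hastens their decay (chromosome 7, 28376784 to 28379255, minus strand). Its lowest, median and highest values were 0.505, 1.74 and 3.14 RPM in the controls and 1.52, 2.20 and 4.09 RPM in libraries labelled KO. All but the highest KO value lay within the range of the controls. The difference was 0.33 on the log2 scale (95% interval -0.22 to 0.87, limma adjusted p = 0.383).

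Levels of different genes can be set side by side only per length of transcript. The exons of GENCODE release M21 were used for the 6 members whose gene ends there are at most 25 bases from those in the deposited table, and the other 4, Junb, Jund, Atf3 and Zfp36, were left out because theirs differ by 998 bases or more. In the controls the mean level in RPM per kb was 2.22 ± 0.689 for Jun, 2.11 ± 0.415 for Ier2 and 1.45 ± 0.370 for Klf6 (SD, n = 7). Lower down came Egr1 at 0.875 ± 0.535, Fos at 0.527 ± 0.451 and Fosb at 0.0510 ± 0.0479. Of the neighbours in this order, Jun and Ier2, and Egr1 and Fos, were closer than the larger of their SDs. In libraries labelled KO the order was headed by Ier2 at 5.12 ± 1.29 RPM per kb (n = 6), then Jun at 3.78 ± 0.984 and Klf6 at 3.65 ± 0.747. Egr1 followed at 1.74 ± 0.5997, Fos at 1.43 ± 0.527 and Fosb at 0.0431 ± 0.0418. Here Jun and Klf6, and Egr1 and Fos, were closer than the larger of their SDs.

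Set against the 2 kinds of control apart, the members gave different counts. The 2 comparisons share the 6 libraries labelled KO. Against WT 2 of 8 rose, Klf6 by 1.13 (SE 0.25, limma adjusted p = 0.00859) and Ier2 by 0.96 (SE 0.27, adjusted p = 0.0308), where 6.05% of all genes rose. Leaving out any 1 of WT replicates 1 to 3 or KO replicates 1 to 3 left 1 call. Against Het 5 of 8 rose, where 16.9% of all genes rose. They were Fos (1.42), Klf6 (1.26), Ier2 (1.11), Junb (1.11) and Jun (0.97), with limma adjusted p between 0.000615 and 0.00704. Egr1 stood at 0.91 against Het (adjusted p = 0.0590) and at 0.92 against WT (adjusted p = 0.121).

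Between Het and WT no member was called, and neither was any of the 16235 genes (limma, 0% higher and 0% lower; limma-voom on the recovered reads gave 0 and 0 as well). At an unadjusted p below 0.05, 242 genes were higher and 715 lower in Het. The difference was -0.84 for Fos (adjusted p = 0.854), -0.62 for Jun (unadjusted p = 0.0354, adjusted p = 0.779), -0.64 for Junb (adjusted p = 0.857) and -0.50 for Zfp36 (adjusted p = 0.933). For Ier2, Klf6, Egr1 and Jund it was between -0.14 and 0.07. Jun and Junb were the members for which every Het library lay below every WT library, 2 of 8 where the share of all genes was 4.64%. Beside this, the summed level of 10 endothelial markers was 31.3 to 47.3 RPM in Het and 62.9 to 71.5 RPM in WT. In libraries labelled KO it was 54.8 to 86.5 RPM. In summed level Het lay wholly below WT for other lists too. Peritubular markers had 354 to 380 RPM in Het and 387 to 411 RPM in WT. Partners of the bZIP family had 371 to 390 and 410 to 451 RPM, and other immediate early genes 651 to 685 and 709 to 717 RPM. Abundant genes carry such sums, as Actg2 does at 265 RPM on average in the controls. The mean log2 difference from the control mean counts each gene alike. By it Het replicate 2 exceeded WT replicate 1 for the peritubular list (0.10 and 0.05) and other immediate early genes (0.020 and 0.0078). The endothelial and bZIP lists did not overlap by this measure. For Sertoli and Leydig cell markers Het and WT overlapped. The part of these levels in the result was not tested.

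By non-overlap of the values themselves, every library labelled KO exceeded every control for 2 of 8 members, Klf6 and Ier2, and for 5.06% of all genes. Every library labelled KO exceeded every WT library for the same 2 members and for 9.05% of genes. It exceeded every Het library for Jun, Ier2 and Klf6, 3 of 8, and for 11.4% of genes.

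**Figure D2:**
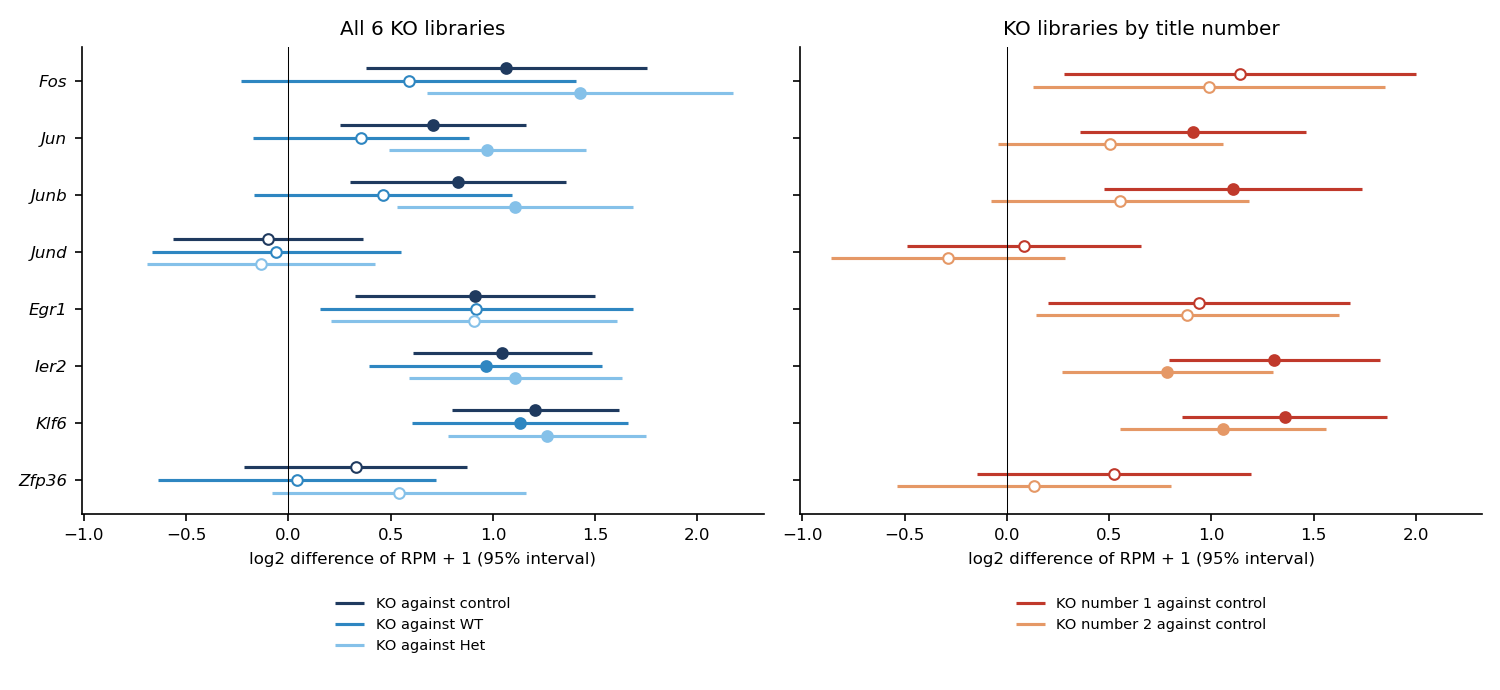
Differences of log2(RPM + 1) for the 8 tested members (horizontal axis, with 95% intervals). The left panel sets all 6 KO libraries against all controls, WT and Het, and the right panel sets the KO libraries of each title number against all controls. Filled points have a limma adjusted p below 0.05, and only Klf6 and Ier2 are filled in every row.

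The libraries labelled KO of both title numbers were also set against the same 7 controls. In those of number 1, 4 of 8 members rose, where 17% of all genes rose: Klf6 by 1.36, Ier2 by 1.31, Junb by 1.11 and Jun by 0.91 (limma adjusted p between 0.000476 and 0.0171). Fos stood at 1.14 (adjusted p = 0.0516) and Egr1 at 0.94 (adjusted p = 0.0618). In those of number 2, whose Wfdc15a level did not pass the test against control, 2 of 8 rose, where 7.8% of all genes rose: Klf6 by 1.06 (adjusted p = 0.00627) and Ier2 by 0.78 (adjusted p = 0.0416). None was called there without KO replicate 5, and 1 was called without WT replicate 2, Het replicate 1, 3 or 4, or KO replicate 4 or 6. Fos and Egr1 stood at 0.99 and 0.88 in number 2 (adjusted p = 0.121 and 0.109), and Jun and Junb at 0.51 and 0.55 (adjusted p = 0.218 and 0.239).

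With the title number as a covariate, 4 of 8 members rose, where 15.7% of all genes rose. Jun stood at 0.60 (limma adjusted p = 0.0724) and Junb at 0.77 (adjusted p = 0.0527) in that fit. Het replicate 1, the 1 control of number 1, deviated from its group mean over genes with a correlation of 0.11 to 0.13 with KO replicates 1 to 3 and of -0.13 to -0.096 with KO replicates 4 to 6. The 6 KO libraries deviate from their own mean, so positive values for some bring negative values for others. Among pairs of number 2 alone, the values ran from -0.11 (WT replicate 3 with Het replicate 2) to 0.18 (WT replicate 1 with Het replicate 2). All these values are a description over genes of the same libraries.

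The test of the difference between the title numbers called none of the 8 members, where 0.0986% of all genes were lower in number 2. All 8 differences were below 0, where the median over all genes was -0.03. They ran from -0.55 for Junb and -0.52 for Ier2 to -0.06 for Egr1 (limma adjusted p between 0.490 and 0.976). The 95% intervals were wide. That of Ier2 ran from -1.13 to 0.09 and that of Fos from -1.17 to 0.87.

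Library by library, the mean of the 8 tested members relative to the control mean was 0.31, 0.09 and 0.19 on the log2 scale in WT and -0.22, 0.11, -0.28 and -0.20 in Het replicates 1 to 4. It was 0.83, 0.80 and 1.13 in KO replicates 1 to 3, and 0.69, 0.69 and 0.35 in KO replicates 4 to 6. The lowest library labelled KO, replicate 6, lay just above the highest control, WT replicate 1. The median over all genes was 0.12 to 0.20 in the same 6 libraries. The number of the 8 members above their control mean was 7, 8, 8, 8, 6 and 7 in KO replicates 1 to 6. The share of all genes above their control mean was not computed. For correlations between members, the KO mean and the mean of WT and Het together were removed, so differences between Het and WT stayed in. Of the 28 pairs of members, 25 then correlated positively over the 13 libraries, with a median r of 0.28 and a range from -0.28 to 0.53. This is a description only, because all pairs share their libraries and depth. Pairs of other genes were not examined for comparison.

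The spread among libraries exceeded counting error for most members. The variance of Egr1 was 12.3 times the counting variance in the controls and 6.08 times in libraries labelled KO. For Atf3 the ratio was 5.33 and 9.98, and for Fos 6.79 and 3.40. In the controls Ier2, at 1.01, and Jund, at 0.757, varied about as much as counting alone would give. In libraries labelled KO their ratios were 2.86 and 2.11.

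Of 53 other immediate early genes, 52 were listed and 42 tested, and 11 rose in libraries labelled KO while none fell, with a median difference of 0.44 against 0.16 for all genes. The 11 were 26.2% of the list, where 18.4% of all genes rose. They were Zfp36l1, Arid5b, Tob1, Socs3, Btg2, Id3, Plk2, Nfkbia, Cyr61, Dusp6 and Gadd45b. With median-of-ratios scaling 5 rose (11.9%, where 10.5% of all genes rose), in limma-voom 4 (9.52% against 10.2%), and with quantile normalization 2 rose and 1 fell (4.76% higher against 8.99%). Under these 3 settings the share of the list that rose was thus near or below that of all genes. Zfp36l1, which encodes a relative of tristetraprolin, went from 16.0 ± 4.11 RPM (SD, n = 7) to 30.1 ± 8.55 RPM (n = 6), a rise of 0.86 on the log2 scale (SE 0.18, limma adjusted p = 0.00186). Socs3, an inhibitor of cytokine signalling, went from 0.691 ± 0.395 to 2.31 ± 1.06 RPM, a rise of 0.95 (SE 0.26, adjusted p = 0.0104). Arid5b, a DNA-binding factor, rose by 0.72 (adjusted p = 0.00967), and Tob1, an antiproliferative factor that recruits deadenylases, rose by 0.38 (adjusted p = 0.00975). Among those not called, and named here after their values were seen, Nr4a1 differed by 0.04, Dusp1 by 0.34, Per1 by 0.22 and Klf4 by -0.26 (limma adjusted p between 0.101 and 0.866). Of these 42 genes 1 rose against WT and 12 against Het, where 6.05% and 16.9% of all genes rose. The count was 12 for KO of number 1 and 1 for number 2, where 17% and 7.8% of all genes rose.

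Among 35 tested upstream factors and kinases, 9 rose (25.7%, where 18.4% of all genes rose) and 1 fell, with a median of 0.24. Under each of the same 3 settings 5 rose (14.3%, where 8.99% to 10.5% of all genes rose) and 1 fell, with medians of 0.09 to 0.11. Map2k4, a kinase that activates the Jun kinases, went from 15.3 ± 3.02 RPM to 28.7 ± 5.32 RPM (SD, n = 7 and 6), a rise of 0.87 (SE 0.16, limma adjusted p = 0.000436). Map2k7, the other kinase of that step, went from 182 ± 19.8 to 131 ± 18.6 RPM and fell by 0.47 (SE 0.10, adjusted p = 0.00161). Rps6ka2, a ribosomal S6 kinase downstream of ERK, rose by 0.71 (adjusted p = 0.00184). Of 14 tested bZIP partners, 3 rose and none fell under RPM + 1 and under each of the other 3 settings, 21.4% of the list. The share of all genes was 18.4% under RPM + 1, close to that of the list, and 8.99% to 10.5% under the others. The 3 under RPM + 1 were Atf4 by 0.71 (limma adjusted p = 0.000346), Nfe2l1 by 0.77 (adjusted p = 0.000877) and Nfe2l2 by 0.72 (adjusted p = 0.00363). These are factors of amino acid, proteasome and oxidative stress responses. Of 9 heat shock genes, 1 rose, Hspa8 by 0.53 (adjusted p = 0.000956), and 1 fell, Hspa1l, whose RNA is typical of spermatids, by 0.40 (adjusted p = 0.0129). The 1 that rose was 11.1% of the list, below the share of all genes. Under quantile normalization 3 of the 9 rose and 1 fell, and with median-of-ratios scaling and in limma-voom 1 rose and 2 fell.

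**Figure D3:**
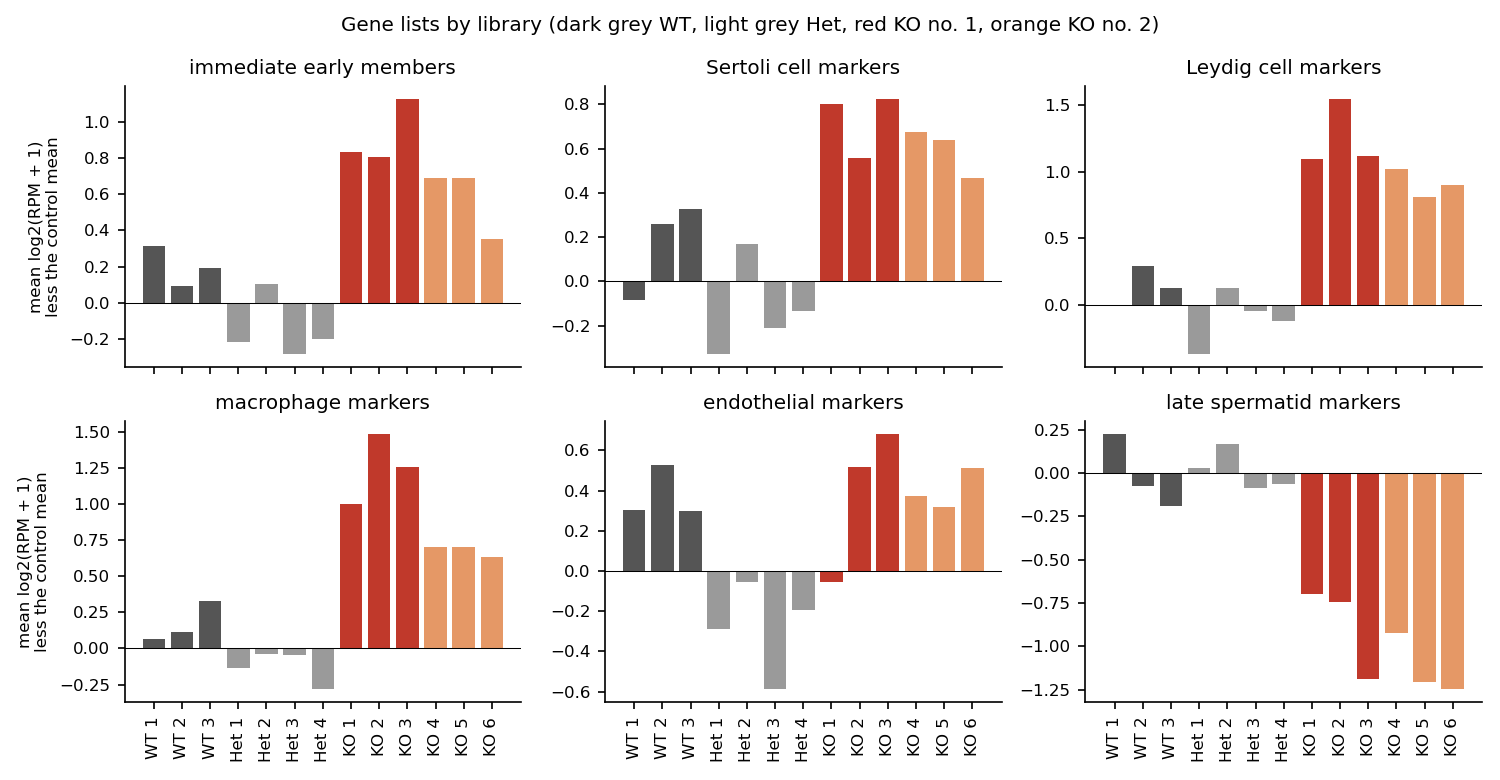
Mean difference of log2(RPM + 1) from the control mean (vertical axis, own scale per panel) in each library, for the 8 tested members and 5 lists of cell type markers. The bars of the members, of the Sertoli, Leydig and macrophage lists are above 0 in all 6 libraries labelled KO, and those of the late spermatid list are below 0 in all 6.

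Markers of several testis cell types moved in the same libraries. Of 18 Sertoli cell markers 11 rose (median difference 0.68), of 10 Leydig cell markers 9 rose (0.97) and of 15 macrophage markers 12 rose (0.86), with none falling. The shares that rose were 61.1% of the Sertoli, 90% of the Leydig and 80% of the macrophage list. All 12 late spermatid markers fell (median -1.06). Of all genes, 18.4% rose and 6.18% fell. Under the 3 other scalings 9 to 10 of the Sertoli, 9 of the Leydig and 8 to 10 of the macrophage markers rose. All 12 late spermatid markers fell under each of them. Of all genes, 8.99% to 10.5% rose and 9.44% to 10.6% fell under these 3. The summed level ran from 1497 to 2539 RPM in the controls and 2840 to 4152 RPM in libraries labelled KO for the Sertoli list, and from 2469 to 4425 and 5960 to 10365 RPM for the Leydig list. For the macrophage list it ran from 853 to 1058 and 998 to 1229 RPM, most of it from Cx3cr1, at 837 RPM on average in the controls. For the late spermatid list it ran from 14620 to 19117 and 6206 to 9699 RPM. No marker of these 4 lists was at 0 in all libraries. In whole testis, fewer cells of a type and less RNA per cell cannot be told apart, and the part of these markers in the members' differences was not tested.

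The remaining lists held fewer calls. With RPM + 1, 30% of the endothelial and 37.5% of the peritubular list rose, where 18.4% of all genes rose. The shares that fell were 12.5% of the peritubular, 10% of the spermatocyte and 42.9% of the round spermatid list, where 6.18% of all genes fell. Of 10 endothelial markers 3 rose (Kdr, Cdh5 and Cldn5) with a median of 0.12, which was -0.03 under quantile normalization, and under each of the other 3 settings 3 rose and 1 fell. Of 8 peritubular markers 3 rose and 1, Actg2, fell. Of the peritubular list 1 rose with median-of-ratios scaling and 0 under the other 2 settings, and 1 fell under all 3. Of 11 spermatogonial markers 2 rose, Kit by 1.21 (limma adjusted p = 2.29e-05) and Stra8 by 0.84 (adjusted p = 0.00509). They were 18.2% of the list, close to the 18.4% of all genes that rose. The median of the list was 0.20, and 7 of its 11 differences were above 0. Under quantile normalization 2 of this list rose and 1 fell. Of 10 spermatocyte markers 1 fell, and 2 fell under each of the other 3 settings. Of 7 round spermatid markers 3 fell, which became 4 with median-of-ratios scaling and 1 under quantile normalization. Of the lymphocyte list 1 gene was tested, Cd3d, which fell by 0.87 (adjusted p = 0.00115). Cd8a was at 0 in all 13 libraries, and Cd79a and Nkg7 were at 0 in 11. Of the red cell list 2 genes were tested and neither was called, though 1 fell under quantile normalization.

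**Figure D4:**
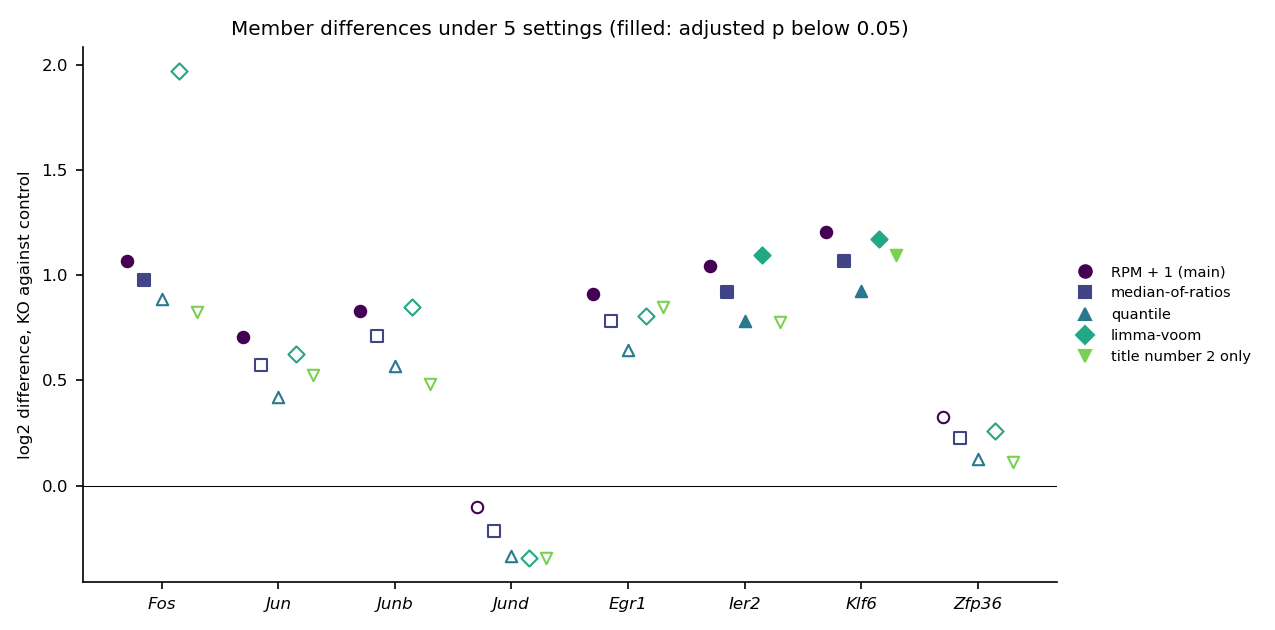
Difference of log2 values between libraries labelled KO and controls (vertical axis) for the 8 tested members under 5 settings: RPM + 1, scaling by median-of-ratios, quantile normalization, limma-voom on the recovered reads, and libraries of title number 2 only. Filled symbols have an adjusted p below 0.05. Klf6 is filled under all 5, Ier2 under 4, Fos under 2 and Jun, Junb and Egr1 under RPM + 1 alone.

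Relative to the median of all genes the rise was 1.05 for Klf6, 0.91 for Fos, 0.89 for Ier2, 0.75 for Egr1, 0.67 for Junb and 0.55 for Jun on the log2 scale. In the plot of settings Jun ran from 0.42 under quantile normalization to 0.71 with RPM + 1. Fos reached 1.97 in limma-voom (adjusted p = 0.0584). Jund was below 0 and Zfp36 above 0 under all 5, and neither was called.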

How the data were processed

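The authors deposited a table of log2 RPM (reads divided by the library total) for 25965 genes in 13 Smart-seq2 libraries, made, per the labels' protocols, from about 2 ng of total RNA with 11 cycles of PCR. FastQC 0.11.8, Trim Galore 0.6.6 and build mm10 are named per the submitters' processing notes. No source used here gives the aligner, the counter or the strand of counting. The log2 values were turned back into reads: the lowest value of a library is that of 0.9 read and was set to 0, and at least 99.96% of the values above it were whole reads within 0.01. Gene reads per library came to 4.22 to 10.1 M. PCR copies could not be removed, so limits from a count of 0 (3 reads, 95% confidence) cover counting error only.

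Genes averaging 1 RPM or more went into limma 3.58.1 (R 4.3.3) as log2(RPM + 1), with its variance trend on. Tests were two-sided, adjusted by Benjamini and Hochberg over 16235 genes, with 0.05 as the threshold, and checked on simulated data. KO against control used 2 groups, and other contrasts used fits with 3 groups. Adjusted p-values are from limma throughout. Members under the filter and Wfdc15a had an exact permutation test over libraries. The design text counts mice, so libraries were taken as separate animals, which the labels do not otherwise state. P-values measure the spread between these libraries.

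The members, the 16 gene lists and the tests were chosen with earlier results of these data known. Named genes were all members, Wfdc15a, up to 4 called genes of lowest adjusted p per list, and the 6 genes most like the members or Fos across libraries. 1 gene that meets this rule is not reported here. Alternatives changed the pseudocount, filter, scaling, model and samples. The alternatives for contrasts of single genotypes and for lists other than immediate early genes were chosen after seeing the data. Levels per length used exons of GENCODE release M21 for the members whose ends there are close to the deposited ones, a choice made after seeing the data, and promoters came from RefSeq.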

Additional observations from a re-analysis of the deposited data

Results flagged for a closer look

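Over the 10 members, 3 of 30 groups examined held a library far from the others by Dixon's criterion, which chance meets in about 1 of 20 groups. Gaps and ranges were taken on log2(RPM + 1). Klf6 in KO replicate 6 was 9.64 RPM, from 84 reads, below the other libraries labelled KO by 0.733 of the range of that group. Egr1 in Het replicate 2 was 5.39 RPM, from 60 reads, above the other Het libraries by 0.851 of their range. Atf3 in Het replicate 1 was 0.505 RPM, from 4 reads, where the other 3 Het libraries had none, so the gap was the whole range, 1.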

How the results depend on the processing

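For KO against control, Klf6 was called under all 24 alternatives and Ier2 under 23, the exception being libraries of title number 2 only (0.78, limma adjusted p = 0.0873). The count of 6 members that rose became 3 under median-of-ratios scaling, 2 under quantile normalization, 2 in limma-voom on the recovered reads, 4 with the title number as a covariate, which ended the calls of Jun and Junb, and 1 with title number 2 only. Without single libraries it ran from 3 to 6, with 3 without KO replicate 3. The filter was applied anew in each of these fits, and some of them tested 9 members. Without KO replicate 4 the 6 calls included Atf3 and not Egr1. The 11 other immediate early genes that rose became 5, 2, 4, 6 and 0 under the same 5 settings in that order, and 8 to 13 without single libraries. The share of all genes that rose changed as well. It was 18.4% in the main fit and 10.5%, 8.99%, 10.2%, 15.7% and 5.55% under these 5 settings. Without single libraries it was 14.7% to 18.5%. For KO of number 1 the 4 members became 2 under quantile normalization. For KO of number 2 the 2 members became 1 under median-of-ratios scaling, quantile normalization and limma-voom, and 0 to 2 without single libraries. For KO against WT the 2 members became 1 under each of those 3 settings and 1 to 2 without single libraries. Fewer samples enter the fits with title number 2 only or without a library. For the other changes the cause was not tested. Jund turned from -0.10 to 0.075 with the replicate block and ran from -0.19 to 0.010 without single libraries, and Fosb ran from -0.12 to 0.015, with neither called. Atf3 had an exact permutation p of 0.0536 under median-of-ratios scaling and 0.595 with title number 2 only.

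The replicate numbers are shared by the groups, but same-numbered libraries correlated by only -0.083 to 0.13 over 10 pairs, 1 of them over 0.1, so the numbers were not taken as pairs. With the replicate block 5 members rose, where 17.5% of all genes rose, and Fos had 1.11 (limma adjusted p = 0.0639). Depth limits Fosb, Atf3 and, in Het, Fos, whose libraries held 0 to 29 reads of them.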

Other observations

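Among 13526 genes searched, those whose levels followed the mean of the 8 tested members most closely over the 13 libraries, after the KO and control means were removed, were St8sia2 (Pearson r = 0.952), Tmem29 (0.946), Fxyd6 (0.910), Gbas (0.907), Sulf1 (0.904) and Syn3 (0.898). St8sia2 encodes a sialyltransferase and Sulf1 a sulfatase of the cell surface. St8sia2 went from 15.0 RPM in the controls to 23.9 RPM in libraries labelled KO, and Sulf1 from 14.3 to 34.0 RPM. For Fos alone the 6 were Rnf135 (0.917), Twsg1 (0.891), Arsb (0.879), Abhd13 (0.871), D6Wsu163e (0.867) and Fuk (0.857), and no gene stood in both sets. These values describe the same libraries and depth, were the highest of many, and carry no test.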
